A study of Homo sapiens with 18 samples.

Results

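The DNAJ genes encode the HSP40 family of co-chaperones, proteins that carry a J domain. They were taken as the rows whose symbol starts with DNAJA, DNAJB or DNAJC in the expression tables of 2 human mantle cell lymphoma lines, JEKO1 and MAVER. That gave 51 of 25369 rows in each table, of which 45 are genes (4 of subclass A, 13 of subclass B and 28 of subclass C), 4 are antisense rows, 1 is a pseudogene and 1 is a readthrough of DNAJC25 into GNG10. Of the 45 genes, 37 had a mean of at least 10 normalized counts over the libraries of a table, the same 37 in both lines (4 of subclass A, 9 of subclass B and 24 of subclass C), and these are described here.

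J-domain proteins bring client proteins to HSP70 and make HSP70 hydrolyse ATP, which closes it on the client. Nucleotide exchange factors then release the client. Class A proteins have a glycine and phenylalanine rich region and a zinc finger, class B proteins have the first without the second, and class C proteins share only the J domain. Several class A and B genes belong to the set that HSF1, the heat shock transcription factor, switches on when proteins misfold in the cytosol, while the endoplasmic reticulum (ER) has its own members that work with the HSP70 of that compartment, HSPA5 (BiP).

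RNA was sequenced from 18 libraries, 3 replicates (A, B and C) for each of 6 groups, all taken at 6 h. JEKO1 cells had IB or DMSO, the solvent; MAVER cells had IB, KPT, PU or DMSO. IB was read as ibrutinib, a BTK inhibitor, given at 0.4 µM, and KPT as selinexor, an XPO1 (nuclear export) inhibitor, given at 1.5 µM, because the series description names these inhibitors. PU and its dose are not explained in the sources used here, so PU is given as written. The replicates are called biological, with no word on how cultures were separated, and the p-values rest on the spread between libraries, which may be technical. For JEKO1 a swap of the IB and DMSO labels cannot be told apart from a response opposite to that of MAVER, so each JEKO1 direction holds for the libraries as labelled.

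Reads per library, recovered from the normalized counts, ran over 8764566 to 12627963 in JEKO1 IB and 9023575 to 11695852 in JEKO1 DMSO. In MAVER they ran over 8415254 to 9810362 with IB, 5374226 to 7924550 with KPT, 8035123 to 17040599 with PU and 9897029 to 12085782 with DMSO. The B cell genes CD79A and MS4A1 and the cyclin D1 gene CCND1 had at least 4525 normalized counts in every library, and CD3D and CD3E, which define T cells, had at most 5.23. Another T cell marker, CD247, had 596 to 664 in JEKO1 libraries labelled IB, against 381 to 442 with DMSO. RNA45S5, the ribosomal RNA precursor, was high in KPT replicates A and C (53819 and 66933 normalized counts, against 9092 in KPT replicate B) and in JEKO1 DMSO replicate C (65331). The 2 tables were normalized separately, so levels are compared within a line. Normalized counts are not per length, so levels of different genes are not compared.

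Changes are log2 fold changes, drug over DMSO, on log2(normalized count + 1), given with the standard error (SE) and the limma p-value adjusted over all genes of the table. "Rose" and "fell" are used of genes with an adjusted p under 0.05. At this depth 55.9% of all MAVER genes tested passed that threshold with KPT and 55.1% with PU, so counts of DNAJ genes are set beside the share of all genes that passed. The 4 MAVER groups share the same DMSO libraries and the same estimate of the spread.

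With PU in MAVER, 14 of the 37 DNAJ genes rose (37.8%, against 27.6% of all 11099 genes tested) and 10 fell (27%, against 27.5% of all genes). The largest rises were in cytosolic class A and B genes: DNAJA4 by 3.16 ± 0.12, DNAJB1 by 2.66 ± 0.04 and DNAJB4 by 1.96 ± 0.08 (log2 fold change ± SE). Of the 37 genes, 8 rose at least 1.5-fold, against 8.49% of all genes, and 3 fell as far, against 6.44% of all genes. PU libraries did not overlap DMSO libraries in 27 of the 37 genes, against 61.2% of all genes. Reads of all 45 DNAJ genes, with those under the threshold, made up 43.7 to 45.4 of every 10000 reads in the PU libraries, against 27.4 to 27.9 in the MAVER DMSO libraries. Among markers of other cells, the 4 fibroblast and epithelial genes summed to 972 to 1033 normalized counts with PU, against 246 to 274 with DMSO. COL1A1 alone had 652 to 733 with PU, against 58.6 to 62.9 with DMSO. EPCAM (263 to 299 against 161 to 189) and KRT18 (21.9 to 25.5 against 10.1 to 18.1) were also higher with PU. PDGFRB, the other fibroblast gene, overlapped (7.30 to 12.1 against 3.91 to 12.9). The summed T cell markers were at most 8.51 with PU and 12.4 with DMSO. The part of these genes in the PU values was not tested. In bulk RNA, fewer cells of a kind and less RNA per cell cannot be told apart.

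With KPT in MAVER, 8 DNAJ genes rose (21.6%, against 27.3% of all genes) and 13 fell (35.1%, against 28.5% of all genes). DNAJB4 had the largest rise, 0.97 ± 0.08, and DNAJB5 the largest fall, -1.06 ± 0.21; the mitochondrial gene DNAJA3 fell by 0.83 on the log2 scale. KPT libraries did not overlap DMSO libraries in 22 of the 37 genes, against 60.4% of all genes. KPT replicate B as the only KPT library leaves out both RNA45S5-rich KPT libraries, but fewer of all genes then passed. Numbers of calls are not given for that fit. The log2 fold changes of DNAJC6, DNAJC13, DNAJC18 and DNAJB6 were then 0.25, 0.19, 0.27 and 0.13 (0.27, 0.15, 0.46 and 0.14 with all KPT libraries). That of DNAJC17 was -0.51 (-0.26 with all KPT libraries).

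With IB in MAVER, 1 DNAJ gene rose (2.7%, against 10.1% of all genes) and 4 fell (10.8%, against 9.65% of all genes), none by as much as 1.5-fold. DNAJB11 fell by 0.42, DNAJB1 by 0.27, DNAJC3 by 0.24 and DNAJA1 by 0.18 on the log2 scale. The gene that rose, DNAJB2, was no longer called without IB replicate B, DMSO replicate A or DMSO replicate C (limma adjusted p = 0.0633, 0.113 and 0.0618). IB and DMSO libraries did not overlap in 10 of the 37 genes, against 33.8% of all genes.

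In JEKO1, 9 DNAJ genes were higher in the libraries labelled IB (24.3%, against 21.9% of all 11609 genes tested) and 6 were lower (16.2%, against 20.2% of all genes). DNAJA4, DNAJB5 and DNAJC1 rose by 0.92, 0.58 and 0.52 log2 units, and DNAJC6 fell by 0.68. IB and DMSO libraries did not overlap in 17 of the 37 genes, against 50.2% of all genes. Some markers of other cells moved with these labels, not all the same way. The 4 summed T cell markers had 606 to 678 normalized counts in the libraries labelled IB, against 392 to 449 with DMSO, nearly all of it CD247. The 3 monocyte markers, all at low counts, summed to 3.18 to 7.32 in those labelled IB, against 7.76 to 11.4 with DMSO. Of these only CD14 did not overlap (0 to 0.794, against 4.47 to 7.76 with DMSO). CD3D, CD3E, CD3G, LYZ, CSF1R, PDGFRB, EPCAM and KRT18 overlapped between the groups. The 4 fibroblast and epithelial genes summed to 28.7 to 46.0 in those labelled IB, against 8.94 to 25.9 with DMSO, and COL1A1 had 12.6 to 19.1 in those labelled IB, against 3.35 to 4.77 with DMSO. The part of these genes in the JEKO1 values was not tested. The numbers of calls moved with single libraries. Without IB replicate C, DMSO replicate A or DMSO replicate B 5 rose, and 13 rose without DMSO replicate C. Without IB replicate A or DMSO replicate C 2 fell, and 3 fell without IB replicate B or C. With 1 library left out, 2220 to 2379 of all genes rose and 1930 to 2208 fell, against 2538 and 2341 with every library.

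Over the 4 comparisons with DMSO, 3 genes (DNAJC8, DNAJC17 and DNAJC27) passed in none, 12 in 1, 13 in 2 and 9 in 3, and no DNAJ gene passed in all 4. Those are 8.11%, 32.4%, 35.1%, 24.3% and 0% of the 37, against 15.5%, 27.9%, 29.9%, 19.3% and 7.36% of the 10632 genes tested in both lines. The median log2 fold change of the 37 genes was 0.06 with PU (0.0069 over all genes), -0.07 with KPT (-0.0014 over all genes), -0.07 with IB in MAVER (-0.0056 over all genes) and 0.06 in JEKO1 (-0.0062 over all genes). In each comparison the DNAJ genes moved in both directions, so the family is taken apart below by the place where its members work.

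**Figure D1:**
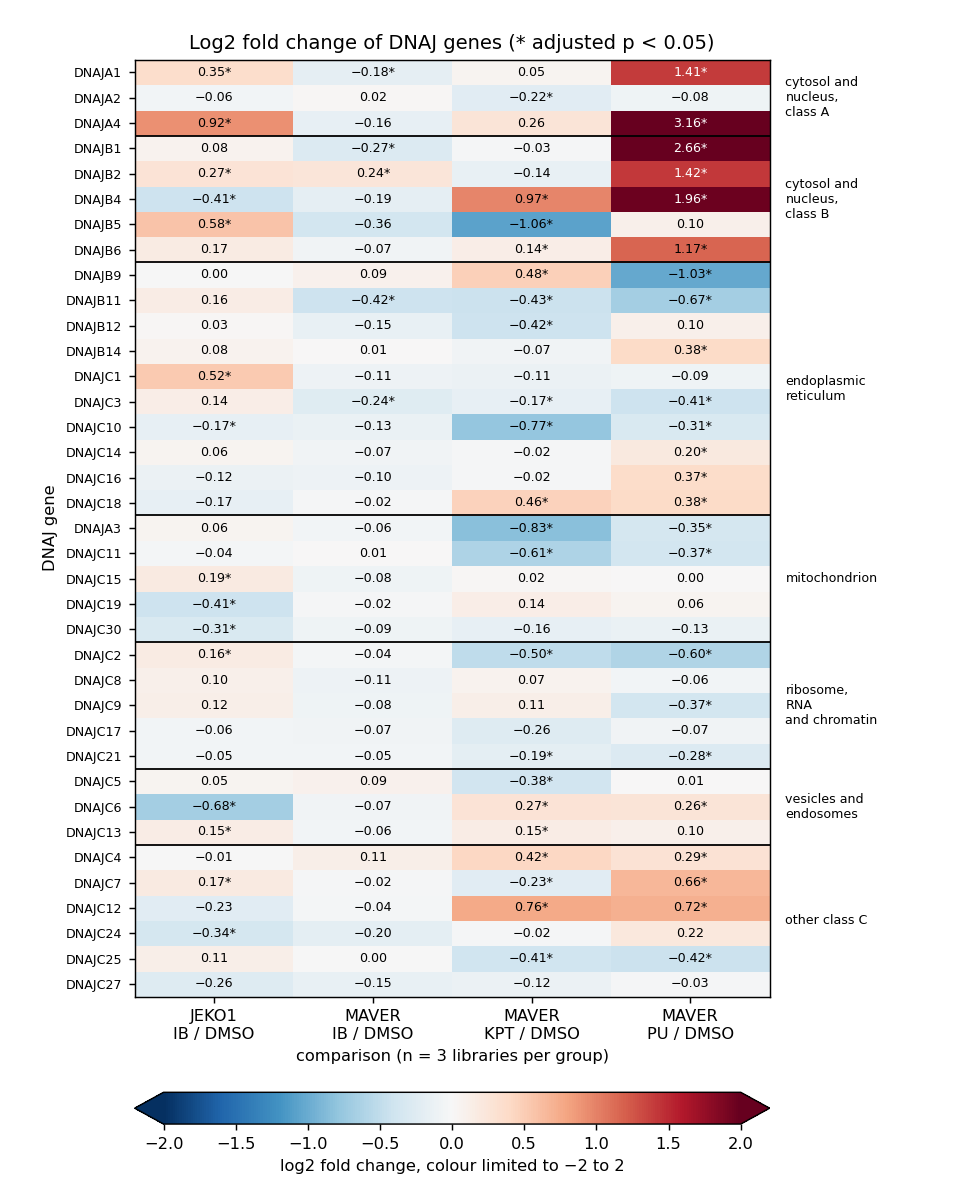
Log2 fold changes (drug over DMSO, n = 3 libraries per group) of the 37 DNAJ genes, grouped by where the proteins work, with the value printed in each cell and an asterisk where the limma adjusted p is under 0.05. Red cells are higher and blue cells lower with the drug; the deepest red is in the PU column, at DNAJA4, DNAJB1 and DNAJB4 (3.16, 2.66 and 1.96).

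Cytosolic and nuclear class A comprises DNAJA1, DNAJA2 and DNAJA4, which hand unfolded proteins to HSP70 in the cytosol. DNAJA1 had 7635, 7402 and 6758 normalized counts with PU in MAVER, 2837, 2844 and 2811 with KPT and 2479, 2314 and 2472 with IB, against 2851, 2604 and 2764 with DMSO. All PU libraries lay far above all others of the line, and all IB libraries lay below all DMSO libraries. The changes were 1.41 ± 0.05 with PU (adjusted p = 1.11e-26), -0.18 ± 0.05 with IB (adjusted p = 0.00325) and 0.05 ± 0.05 with KPT (adjusted p = 0.379). In JEKO1, DNAJA1 had 5521, 5991 and 6062 in the libraries labelled IB, against 4514, 4424 and 4825 with DMSO, with no overlap and a rise of 0.35 ± 0.04 (adjusted p = 2.55e-06). The fall with IB in MAVER was not called when limma was run without a variance trend (adjusted p = 0.0612).

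DNAJA4 had 634, 666 and 641 normalized counts with PU, 87.9, 90.3 and 78.5 with KPT and 73.2, 60.3 and 58.4 with IB, against 67.2, 65.7 and 82.1 with DMSO in MAVER. The PU libraries stood apart from the other 9 libraries of the line, among which the groups lay close together. The PU change was 3.16 ± 0.12 (adjusted p = 7.54e-24), while KPT gave 0.26 ± 0.12 (adjusted p = 0.0747) and IB -0.16 ± 0.12 (adjusted p = 0.412). Its JEKO1 values were 49.2, 33.3 and 33.5 in the libraries labelled IB, against 14.7, 24.6 and 21.0 with DMSO, at low levels that did not overlap. The rise there was 0.92 ± 0.25 (adjusted p = 0.0065) and was no longer called without IB replicate A (adjusted p = 0.0554).

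DNAJA2, the third cytosolic class A gene, changed by -0.08 with PU (95% interval -0.18 to 0.02; adjusted p = 0.191) and fell by 0.22 with KPT (adjusted p = 0.000345). Set directly against KPT, PU was higher in all 3 of these cytosolic class A genes: DNAJA4 by 2.91 ± 0.12, DNAJA1 by 1.36 ± 0.05 and DNAJA2 by 0.14 ± 0.05. Of all genes, 28.3% rose and 28.6% fell in that comparison. The DNAJA2 difference was lost without PU replicate A, PU replicate B or KPT replicate A (adjusted p = 0.05, 0.063 and 0.0866). With KPT replicate B as the only KPT library it was 0.11.

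Cytosolic and nuclear class B comprises DNAJB1, DNAJB2, DNAJB4, DNAJB5 and DNAJB6. With PU, 4 of these 5 rose and none fell, against 27.6% and 27.5% of all genes, and the fifth, DNAJB5, did not pass. DNAJB1 is the classical heat-inducible HSP40. It had 12176, 12071 and 12313 normalized counts with PU, 1919, 1889 and 1863 with KPT and 1541, 1646 and 1593 with IB, against 1894, 1902 and 1982 with DMSO. Every PU library was far above every other MAVER library, and every IB library was below every DMSO library. The changes were 2.66 ± 0.04 with PU (adjusted p = 9.72e-38), -0.27 ± 0.04 with IB (adjusted p = 1.93e-06) and -0.03 ± 0.04 with KPT (adjusted p = 0.601). For JEKO1 the values were 876, 851 and 850 in the libraries labelled IB, against 828, 837 and 777 with DMSO, and the change of 0.08 was not called (adjusted p = 0.278).

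DNAJB4 differed from DNAJB1 in that KPT also raised it. It had 688, 738 and 643 normalized counts with PU, 353, 344 and 343 with KPT and 153, 153 and 159 with IB, against 187, 167 and 177 with DMSO. The PU libraries were highest, the KPT libraries formed a tight group between, and IB lay below DMSO. The rise was 1.96 ± 0.08 with PU (adjusted p = 1.05e-22) and 0.97 ± 0.08 with KPT (adjusted p = 4.69e-13), and PU exceeded KPT by 0.99 ± 0.08 (adjusted p = 2.33e-13). With IB the change was -0.19 ± 0.08 (adjusted p = 0.115). JEKO1 libraries labelled IB had 98.5, 118 and 80.6, against 114, 142 and 137 with DMSO; these overlapped, and the fall of 0.41 (adjusted p = 0.0267) was lost without IB replicate A or C or DMSO replicate B or C (adjusted p = 0.0545, 0.143, 0.102 and 0.077).

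DNAJB2 binds ubiquitin and directs clients to the proteasome. It had 1012, 954 and 1080 normalized counts with PU, 371, 329 and 331 with KPT and 456, 463 and 427 with IB, against 352, 419 and 368 with DMSO. PU and IB libraries both lay above the DMSO libraries, PU by much more. The changes were 1.42 ± 0.07 with PU (adjusted p = 5.62e-20), 0.24 ± 0.07 with IB (adjusted p = 0.0131) and -0.14 ± 0.07 with KPT (adjusted p = 0.0963). In JEKO1 it had 562, 546 and 610 in the libraries labelled IB, against 479, 506 and 437 with DMSO, a rise of 0.27 ± 0.07 (adjusted p = 0.00408). It was the only DNAJ gene that passed with IB in the same direction in both lines.

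DNAJB6 suppresses aggregation of proteins with long glutamine stretches. It had 2507, 2663 and 2583 normalized counts with PU, 1306, 1258 and 1237 with KPT and 1114, 1141 and 1040 with IB, against 1109, 1203 and 1141 with DMSO. PU libraries again stood above all others of the line, by 1.17 ± 0.05 (adjusted p = 1.5e-22). The rise with KPT was small, 0.14 ± 0.05 (adjusted p = 0.0167), and was lost without KPT replicate A or DMSO replicate A (adjusted p = 0.0744 and 0.0945). With KPT replicate B as the only KPT library the DNAJB6 change was 0.13. Its JEKO1 values were 746, 672 and 755 in the libraries labelled IB, against 583, 638 and 713 with DMSO, which overlapped (0.17, adjusted p = 0.0627).

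DNAJB5 had 55.9, 52.1 and 82.8 normalized counts with PU, 35.9, 22.6 and 24.9 with KPT and 42.4, 40.2 and 53.1 with IB, against 59.0, 54.3 and 61.0 with DMSO. Of the 5 cytosolic class B genes it was the one that fell with KPT, with a change of -1.06 ± 0.21 (adjusted p = 2.84e-05), and the KPT libraries lay below all others of the line. PU and DMSO libraries overlapped, with a difference of 0.10 (95% interval -0.31 to 0.52). For JEKO1 the values were 86.6, 72.2 and 71.2 in the libraries labelled IB, against 52.6, 50.3 and 49.6 with DMSO, a rise of 0.58 ± 0.16 (adjusted p = 0.00595) without overlap. Against KPT, PU was higher in all 5 of these cytosolic class B genes, by 0.99 (DNAJB4) to 2.69 (DNAJB1) log2 units. In that comparison 28.3% of all genes rose and 28.6% fell.

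**Figure D2:**
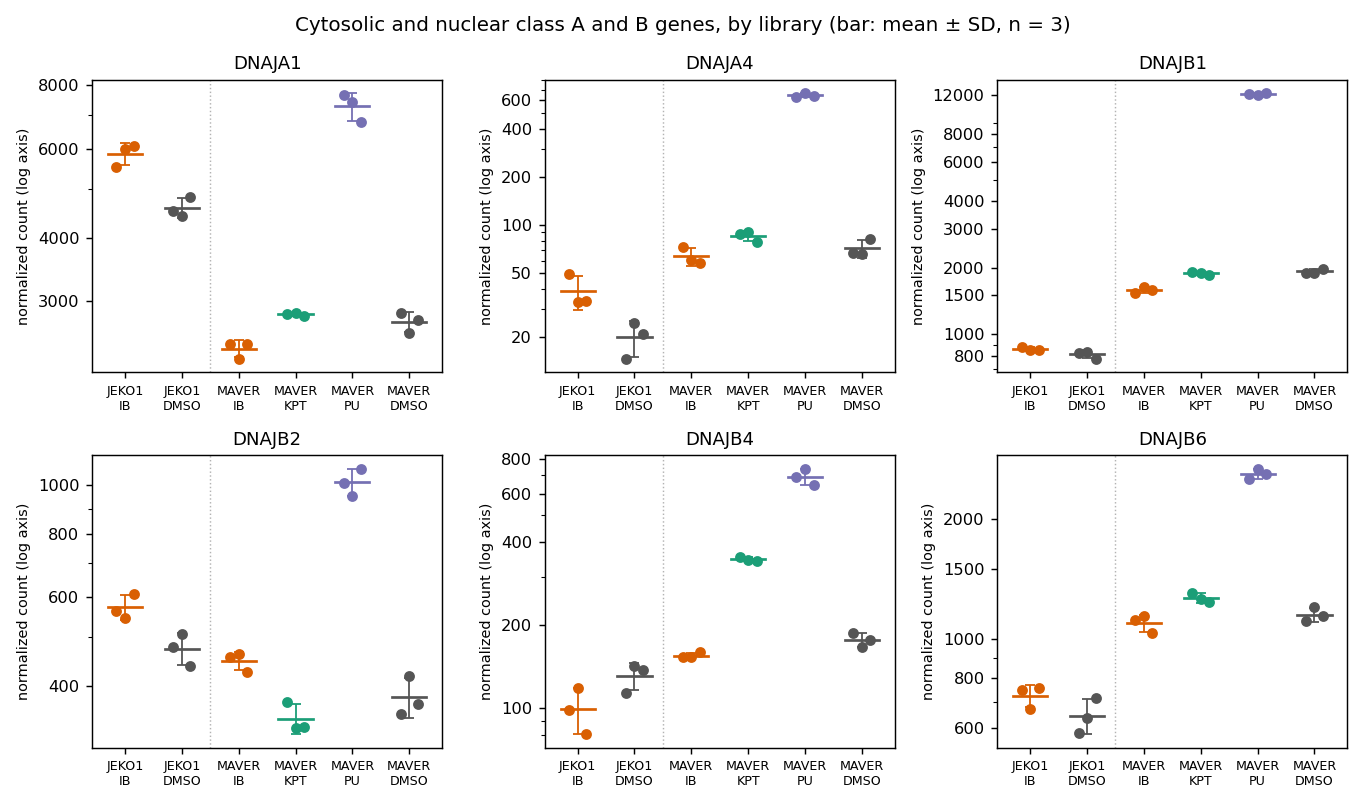
Normalized counts (log axis) of 6 cytosolic class A and B genes in each of the 18 libraries; points are libraries, bars the mean ± SD of 3, and a dotted line parts JEKO1 from MAVER, whose levels are on separate scales. The PU points of DNAJA1, DNAJA4, DNAJB1, DNAJB2 and DNAJB6 lie above every other MAVER point, and for DNAJB4 the KPT points lie between PU and DMSO.

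Promoter windows from RefSeq (GRCh38.p14, 250 bases before to 50 after a gene's start) were found for 40 of the 45 genes, 52 windows in all. They were searched for letters of the heat shock element, the site of HSF1, on both strands. A pair of heat shock units (GAANNTTC or TTCNNGAA) was in 9 of the 52 windows (17.3%), against 13.5% of all 35116 windows, and in 8 of the 40 genes, against 16.2% of all 27305 genes. The element of 3 units (GAA, TTC and GAA, or TTC, GAA and TTC, with 2 bases between units), which overlaps 2 pairs, was in 2 windows, those of DNAJA1 and DNAJB6, against 0.49% of all windows. The ER stress element (CCAAT and CCACG with 9 bases between them) was in none, against 0.0769% of all windows. Of the 7 class A and B genes that rose with PU, DNAJA1, DNAJA4, DNAJB1, DNAJB4 and DNAJB6 had at least 1 pair, while DNAJB2 and the ER gene DNAJB14 had none. Of the 7 class C genes that rose with PU, only DNAJC6 had a pair. The other genes with a pair were DNAJB7, which was not tested, and DNAJC15, which did not pass with PU. A match is a description of letters, and binding was not measured.

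The 4 windows below belong to the genes with the largest PU rises among those with a match. They are written 5′ to 3′ on the strand of the gene, with matched units in capitals.
DNAJA4, chr15:78264312-78264611, plus strand: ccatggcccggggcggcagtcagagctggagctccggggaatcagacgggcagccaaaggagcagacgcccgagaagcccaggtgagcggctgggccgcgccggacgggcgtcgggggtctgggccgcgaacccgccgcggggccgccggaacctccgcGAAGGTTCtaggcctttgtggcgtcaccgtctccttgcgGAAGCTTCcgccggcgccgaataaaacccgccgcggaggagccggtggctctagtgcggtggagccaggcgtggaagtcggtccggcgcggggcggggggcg
DNAJB1, chr19:14518348-14518647, minus strand: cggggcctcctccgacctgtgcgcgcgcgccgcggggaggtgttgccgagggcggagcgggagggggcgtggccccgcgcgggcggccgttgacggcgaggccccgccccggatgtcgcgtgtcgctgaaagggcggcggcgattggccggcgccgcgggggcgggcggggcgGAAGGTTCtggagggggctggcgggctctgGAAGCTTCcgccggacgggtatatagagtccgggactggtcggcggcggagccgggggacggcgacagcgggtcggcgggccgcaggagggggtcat
DNAJB4, chr1:78004689-78004988, plus strand: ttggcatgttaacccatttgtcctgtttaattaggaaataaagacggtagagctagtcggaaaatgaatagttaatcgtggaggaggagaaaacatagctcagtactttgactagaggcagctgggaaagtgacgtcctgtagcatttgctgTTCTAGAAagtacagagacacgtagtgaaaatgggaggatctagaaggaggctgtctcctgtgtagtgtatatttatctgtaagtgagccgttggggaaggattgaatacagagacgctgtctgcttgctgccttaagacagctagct
DNAJA1, chr9:33025023-33025322, plus strand: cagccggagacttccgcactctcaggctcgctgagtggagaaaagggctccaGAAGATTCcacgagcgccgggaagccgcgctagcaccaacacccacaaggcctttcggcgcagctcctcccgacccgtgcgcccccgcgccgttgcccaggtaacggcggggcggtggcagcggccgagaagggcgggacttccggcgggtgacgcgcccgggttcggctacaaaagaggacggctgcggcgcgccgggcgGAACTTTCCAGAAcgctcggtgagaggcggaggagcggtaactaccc
In DNAJA4 and DNAJB1 the same matches recur, GAAGGTTC followed by GAAGCTTC, at -91 and -52 in DNAJA4 and at -77 and -47 in DNAJB1 (first base, counted from the start site). DNAJB4 holds TTCTAGAA at -98. DNAJA1 holds GAAGATTC at -198 and the 3-unit element GAACTTTCCAGAA at 4 to 16 bases after the start. DNAJB1 has another window with a match just after its start, and DNAJA4 and DNAJB4 have other windows without one.

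**Figure D3:**
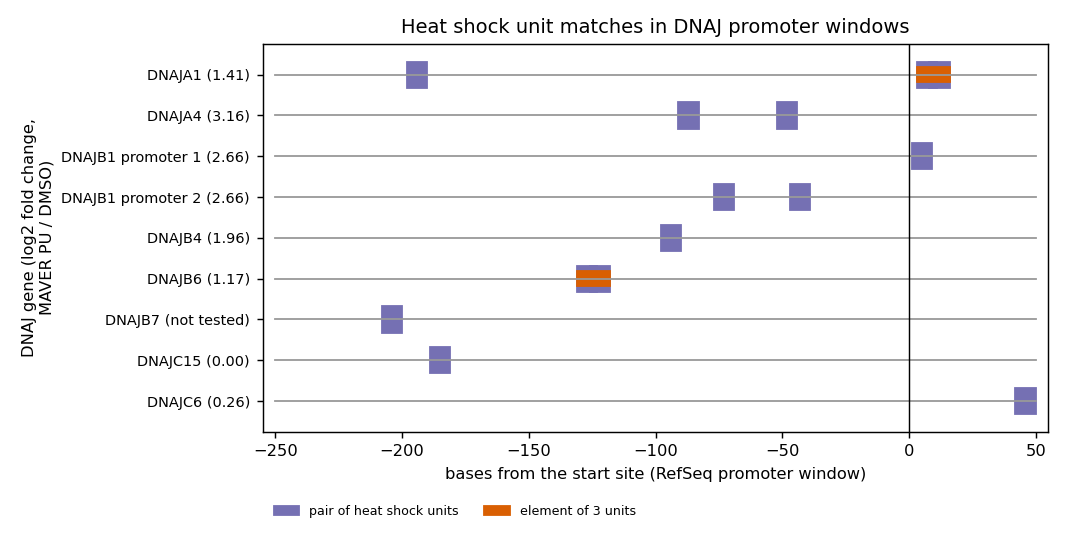
Positions of heat shock unit matches in the 9 DNAJ promoter windows that hold one, in bases from the start site; blue boxes are pairs and orange boxes elements of 3 units, and the label gives the PU log2 fold change. The matches of DNAJA4, DNAJB1 (promoter 2) and DNAJB4 lie within 100 bases before the start, and those of DNAJB7 (not tested) and DNAJC15 (0.00) lie farther upstream.

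Of 10 members of the ER, 4 rose and 4 fell with PU, against 27.6% and 27.5% of all genes, and 2 rose and 4 fell with KPT, against 27.3% and 28.5%. With IB, 2 fell in MAVER, against 9.65% of all genes, and 1 rose and 1 fell in JEKO1, against 21.9% and 20.2%. DNAJB9 (ERdj4) and DNAJB11 (ERdj3) are luminal partners of BiP, DNAJC3 (P58IPK) is a BiP partner that also restrains the kinase PERK, and DNAJC10 (ERdj5) reduces disulfide bonds. DNAJB9 moved in opposite directions with PU and KPT. It had 145, 182 and 143 normalized counts with PU, 484, 431 and 420 with KPT and 354, 325 and 341 with IB, against 336, 312 and 310 with DMSO. No PU library reached the lowest DMSO library, and every KPT library exceeded every DMSO library. The changes were -1.03 ± 0.09 with PU (adjusted p = 6.56e-13) and 0.48 ± 0.09 with KPT (adjusted p = 1.88e-05), and PU minus KPT was -1.51 ± 0.09 (adjusted p = 7.3e-18). In JEKO1 it had 187, 178 and 158 in the libraries labelled IB, against 179, 158 and 186 with DMSO, which overlapped.

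DNAJB11 was lower with each of the 3 drugs in MAVER. It had 851, 937 and 905 normalized counts with PU, 1074, 1082 and 1038 with KPT and 1117, 1041 and 1058 with IB, against 1408, 1362 and 1531 with DMSO. All 9 drug libraries lay below the lowest DMSO library. The changes were -0.67 ± 0.05 with PU (adjusted p = 6.28e-14), -0.43 ± 0.05 with KPT (adjusted p = 9.76e-09) and -0.42 ± 0.05 with IB (adjusted p = 6.66e-08). Its JEKO1 values were 565, 529 and 591 in the libraries labelled IB, against 475, 503 and 533 with DMSO, and the change of 0.16 was not called (adjusted p = 0.0744).

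DNAJC3 was likewise lower with each drug, and with DNAJB11 it was the only DNAJ gene called in all 3 MAVER comparisons in the same direction. It had 776, 777 and 763 normalized counts with PU, 934, 866 and 931 with KPT and 915, 793 and 902 with IB, against 1023, 1032 and 1016 with DMSO. All 9 drug libraries lay below the lowest DMSO library, the PU libraries lowest of all. The changes were -0.41 ± 0.06 with PU (adjusted p = 8.13e-08), -0.24 ± 0.06 with IB (adjusted p = 0.00169) and -0.17 ± 0.06 with KPT (adjusted p = 0.0104). The KPT call was lost without KPT replicate B (adjusted p = 0.0698).

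DNAJC10 fell most with KPT. It had 812, 764 and 780 normalized counts with PU, 558, 588 and 566 with KPT and 886, 884 and 897 with IB, against 964, 962 and 990 with DMSO. KPT libraries were the lowest of the line and PU libraries lay between them and DMSO. The changes were -0.77 ± 0.05 with KPT (adjusted p = 2.73e-15) and -0.31 ± 0.05 with PU (adjusted p = 7.8e-06), and PU was above KPT by 0.46 ± 0.05 (adjusted p = 2.35e-09). For JEKO1 the values were 1236, 1266 and 1326 in the libraries labelled IB, against 1345, 1441 and 1517 with DMSO, a fall of 0.17 (adjusted p = 0.0158) that was lost without IB replicate A or B or DMSO replicate C (adjusted p = 0.061, 0.0563 and 0.0682).

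None of the other 6 ER members changed by as much as 1.5-fold. DNAJB14, which with DNAJB12 helps remove misfolded membrane proteins, rose by 0.38 with PU, and DNAJC14, DNAJC16 and DNAJC18 rose by 0.20, 0.37 and 0.38. KPT lowered DNAJB12 by 0.42 (adjusted p = 4.09e-06) and raised DNAJC18 by 0.46 (adjusted p = 0.00365), the latter call lost without KPT replicate A (adjusted p = 0.0748). With KPT replicate B as the only KPT library the DNAJC18 change was 0.27. The PU rise of DNAJC18 was lost without PU replicate A or DMSO replicate B (adjusted p = 0.0552 and 0.0949). DNAJC1 (ERdj1), which binds ribosomes at the ER, had 249, 241 and 220 in JEKO1 libraries labelled IB, against 142, 170 and 182 with DMSO. That was a rise of 0.52 ± 0.11 (adjusted p = 0.000469), and none of the MAVER comparisons called it.

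**Figure D4:**
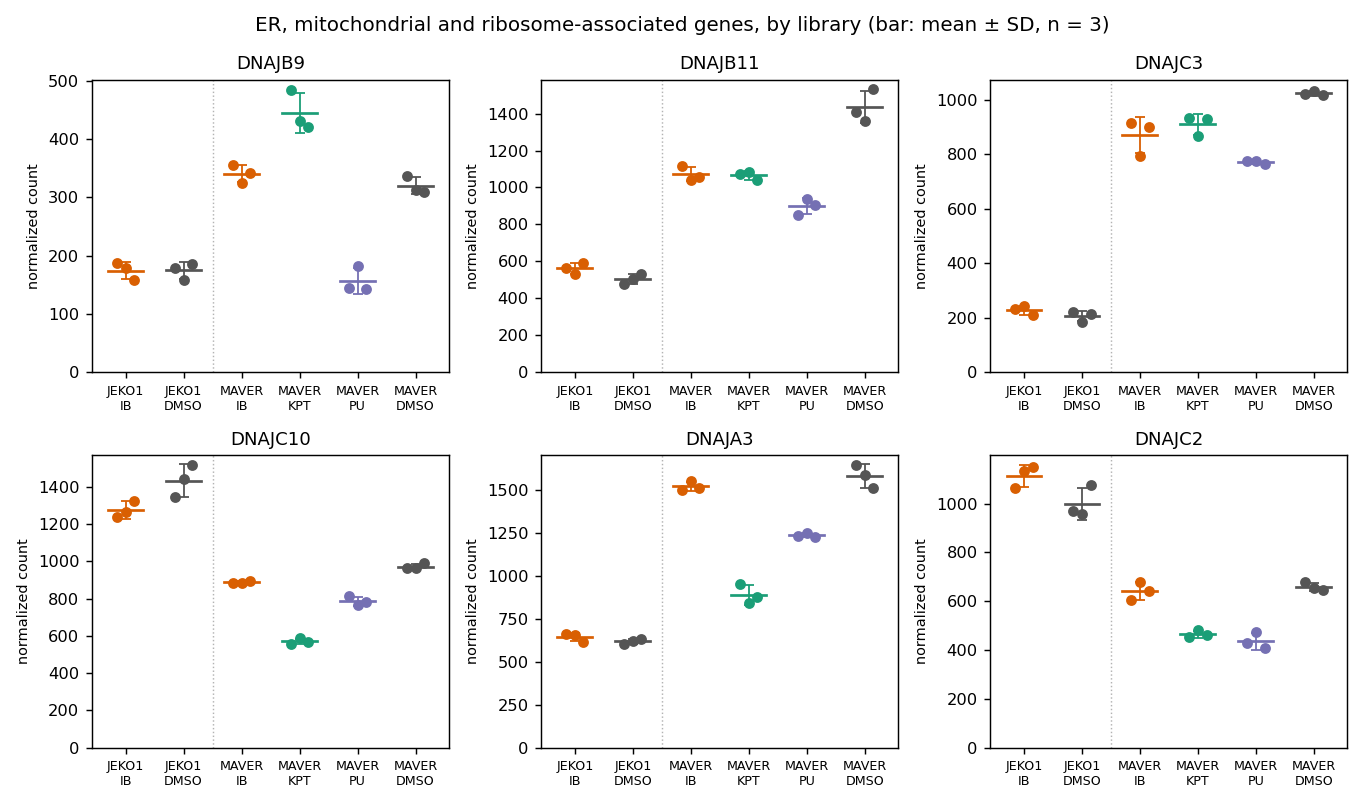
Normalized counts (linear axis from 0) of 4 ER genes (DNAJB9, DNAJB11, DNAJC3 and DNAJC10), the mitochondrial DNAJA3 and the ribosome-associated DNAJC2 in each library; points are libraries and bars the mean ± SD of 3. For DNAJB9 the KPT points lie above DMSO and the PU points below it, and for DNAJB11 all drug points of MAVER lie below DMSO.

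Of 5 mitochondrial members, 2 fell and none rose with PU and with KPT (40% fell with each, against 27.5% of all genes with PU and 28.5% with KPT). None passed with IB in MAVER, where 10.1% of all genes rose and 9.65% fell. DNAJA3 (Tid1), the class A partner of mitochondrial HSP70, had 1232, 1250 and 1227 normalized counts with PU, 954, 841 and 876 with KPT and 1501, 1550 and 1509 with IB, against 1645, 1586 and 1511 with DMSO. KPT libraries were lowest, PU libraries lay between, and IB overlapped DMSO. The changes were -0.83 ± 0.05 with KPT (adjusted p = 4.14e-17) and -0.35 ± 0.05 with PU (adjusted p = 1.78e-07). In JEKO1 it had 661, 654 and 616 in the libraries labelled IB, against 604, 618 and 633 with DMSO, which overlapped.

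DNAJC11, which associates with the complex that shapes mitochondrial cristae, followed the same order. It had 749, 784 and 883 normalized counts with PU, 707, 691 and 638 with KPT and 1048, 1073 and 1007 with IB, against 991, 993 and 1133 with DMSO. The changes were -0.61 ± 0.06 with KPT (adjusted p = 5.5e-11) and -0.37 ± 0.06 with PU (adjusted p = 3.34e-06), and PU was above KPT by 0.24 ± 0.06 (adjusted p = 0.000939). Its JEKO1 values were 1668, 1811 and 1724 in the libraries labelled IB, against 1752, 1814 and 1765 with DMSO, and the change was not called. DNAJC15 and DNAJC19, which work at the inner membrane import motor, and DNAJC30 passed in no MAVER comparison with DMSO. Their JEKO1 changes were 0.19, -0.41 and -0.31. The DNAJC15 call was lost without IB replicate B or C or DMSO replicate A or B (adjusted p from 0.0862 to 0.237). The DNAJC19 call was lost without IB replicate A or DMSO replicate A or C (0.0679 to 0.118), and the DNAJC30 call without IB replicate B or C or DMSO replicate B (0.0704 to 0.144).

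Of 5 members at the ribosome, RNA and chromatin, 3 fell with PU (27.5% of all genes), 2 fell with KPT (28.5% of all genes) and none rose with either. DNAJC2, which with HSPA14 forms the ribosome-associated complex, had 427, 474 and 407 normalized counts with PU, 452, 481 and 462 with KPT and 607, 677 and 641 with IB, against 678, 655 and 645 with DMSO. PU and KPT libraries overlapped each other and lay below all IB and DMSO libraries. The changes were -0.60 ± 0.07 with PU (adjusted p = 4.81e-10) and -0.50 ± 0.07 with KPT (adjusted p = 2.95e-08). JEKO1 libraries labelled IB had 1063, 1132 and 1148, against 968, 956 and 1075 with DMSO, a rise of 0.16 with overlap (adjusted p = 0.0319). It was lost without IB replicate B or C or DMSO replicate A or B (adjusted p = 0.107, 0.0991, 0.124 and 0.142).

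DNAJC21, a factor of large ribosomal subunit maturation, fell by 0.28 with PU and by 0.19 with KPT, and the KPT call was lost without KPT replicate A or B or DMSO replicate C (adjusted p = 0.0974, 0.0822 and 0.0509). DNAJC9, a histone chaperone, fell by 0.37 with PU (adjusted p = 2.04e-05) and changed by 0.11 with KPT (adjusted p = 0.181). PU minus KPT was -0.48 ± 0.07 for it (adjusted p = 1.98e-07). DNAJC8 and DNAJC17, which act in splicing, passed in none of the 4 comparisons with DMSO.

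Among the 3 vesicle and endosome members, DNAJC6 (auxilin), which uncoats clathrin vesicles, had 229, 263 and 220 normalized counts with PU, 237, 234 and 242 with KPT and 182, 184 and 196 with IB, against 212, 185 and 195 with DMSO. PU and KPT libraries lay above all DMSO libraries. The rises with PU and KPT were 0.26 and 0.27 (adjusted p = 0.0177 and 0.0151). The PU call was lost without PU replicate B or DMSO replicate B (adjusted p = 0.15 and 0.0864), and the KPT call without DMSO replicate B (adjusted p = 0.0761). With KPT replicate B as the only KPT library the DNAJC6 change was 0.25. In JEKO1, at low counts, it had 15.9, 17.2 and 17.8 in the libraries labelled IB, against 31.9, 21.2 and 31.5 with DMSO, a fall of 0.68 (adjusted p = 0.0421) that was lost without each library except DMSO replicate B (adjusted p from 0.0572 to 0.153).

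DNAJC5, the cysteine string protein of secretory vesicles, fell by 0.38 with KPT (adjusted p = 1.96e-07) and changed by 0.01 with PU (adjusted p = 0.869). PU was above KPT by 0.39 ± 0.05 for it (adjusted p = 1e-07). DNAJC13, an endosome protein, rose by 0.15 with KPT and by 0.15 in JEKO1. The KPT call was lost without KPT replicate B or C or DMSO replicate B or C (adjusted p from 0.0671 to 0.134). The JEKO1 call was lost without each library except DMSO replicate C (0.0564 to 0.154). With KPT replicate B as the only KPT library the DNAJC13 change with KPT was 0.19.

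Of the other 6 class C genes, 3 rose and 1 fell with PU (27.6% and 27.5% of all genes). With KPT 2 rose and 2 fell, near the 27.3% and 28.5% of all genes. DNAJC7, which binds both HSP70 and HSP90, had 2291, 2362 and 2143 normalized counts with PU, 1297, 1243 and 1134 with KPT and 1413, 1438 and 1395 with IB, against 1434, 1433 and 1438 with DMSO. PU libraries were above and KPT libraries below all others of the line. The changes were 0.66 ± 0.05 with PU (adjusted p = 1.69e-14) and -0.23 ± 0.05 with KPT (adjusted p = 0.000148). For JEKO1 the values were 1190, 1317 and 1343 in the libraries labelled IB, against 1120, 1068 and 1228 with DMSO, which overlapped. That rise of 0.17 (adjusted p = 0.0253) was lost without IB replicate B or C or DMSO replicate A or B (adjusted p = 0.107, 0.0973, 0.0807 and 0.14).

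DNAJC12, a co-chaperone of the aromatic amino acid hydroxylases, had 88.8, 85.6 and 83.8 normalized counts with PU, 82.5, 92.7 and 91.0 with KPT and 43.3, 57.0 and 52.0 with IB, against 50.7, 66.7 and 41.4 with DMSO. PU and KPT libraries lay above all IB and DMSO libraries, by 0.76 ± 0.17 with KPT (adjusted p = 0.000192) and 0.72 ± 0.17 with PU (adjusted p = 0.000383) over DMSO. In JEKO1 it had 54.8, 61.9 and 51.3 in the libraries labelled IB, against 56.1, 62.6 and 81.1 with DMSO, which overlapped (-0.23, adjusted p = 0.301).

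DNAJC4 rose by 0.42 with KPT and 0.29 with PU, a PU call lost without PU replicate C or DMSO replicate A (adjusted p = 0.0653 and 0.0629). DNAJC25 fell by 0.41 with KPT and 0.42 with PU, and its KPT call was lost without KPT replicate B (adjusted p = 0.0743). DNAJC24, a factor of diphthamide synthesis, fell by 0.34 in JEKO1 (adjusted p = 0.00611) and passed in none of the MAVER comparisons with DMSO.

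Between drugs in MAVER, tested directly, 18 DNAJ genes were higher and 4 lower with PU than with KPT (48.6% and 10.8%, against 28.3% and 28.6% of all genes). The same test of PU against IB gave 16 higher and 10 lower (27.5% and 27.6% of all genes), and KPT against IB gave 13 higher and 11 lower (27% and 28.2% of all genes). The groups did not overlap in 23, 27 and 24 of the 37 genes, against 60.6%, 59.8% and 58.4% of all genes. DNAJB1 with PU exceeded IB by 2.93 ± 0.04 and DNAJA1 by 1.58 ± 0.05, while DNAJB9 was lower with PU than with IB (-1.12 ± 0.09). KPT exceeded IB most in DNAJB4 (1.16 ± 0.08) and DNAJC12 (0.80 ± 0.17) and was lower most in DNAJA3 (-0.77 ± 0.05) and DNAJB5 (-0.70 ± 0.21). These 3 comparisons share libraries with each other.

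The IB effect was compared between lines by subtracting the effect in MAVER from the effect in JEKO1. It was higher in JEKO1 for 12 of the 37 DNAJ genes (32.4%, against 21.7% of all 10632 genes tested in both) and lower for 1 (2.7%, against 19.6% of all genes). The cytosolic class A and B genes among the 12 were DNAJA4, DNAJB5, DNAJA1, DNAJB1 and DNAJB6, and the ER genes were DNAJC1, DNAJB11 and DNAJC3. DNAJA1 changed by 0.35 in JEKO1 and by -0.18 in MAVER, a difference of 0.53 ± 0.07 (adjusted p = 2.58e-07). For DNAJB11 the changes were 0.16 in JEKO1 and -0.42 in MAVER, a difference of 0.57 ± 0.09 (adjusted p = 4.66e-06), and for DNAJB1 they were 0.08 and -0.27, a difference of 0.35 ± 0.07 (adjusted p = 0.000143). Of the 15 DNAJ genes called in JEKO1 and the 5 called in MAVER, 2 were called in both: DNAJA1 in opposite directions and DNAJB2 upward. Over all genes, 1415 were called in both lines and 1260 of them (89%) went in opposite directions.

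**Figure D5:**
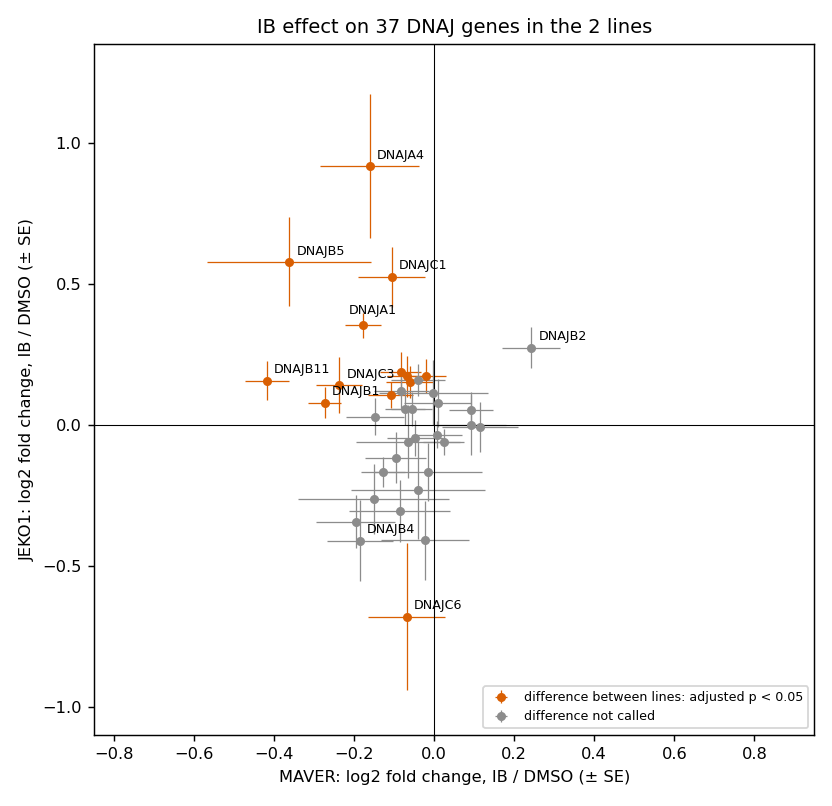
IB effect on the 37 DNAJ genes in JEKO1 (vertical axis) against MAVER (horizontal axis), as log2 fold change IB over DMSO with SE bars; orange points passed the test of the difference between lines at an adjusted p under 0.05. Most orange points lie in the upper left, higher in JEKO1 libraries labelled IB and lower with IB in MAVER, DNAJA4, DNAJB5 and DNAJC1 highest; DNAJC6 is the one orange point below 0.

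The partners of the DNAJ proteins were described from 5 lists, chosen for their link to this family. Their counts are read against the shares of all genes, of which 27.6% rose and 27.5% fell with PU, 27.3% and 28.5% with KPT, 10.1% and 9.65% with IB in MAVER, and 21.9% and 20.2% in JEKO1. Of 12 HSP70 genes tested in MAVER, 7 rose and 3 fell with PU (58.3% and 25%; median 0.60), 3 rose and 6 fell with KPT (25% and 50%; median -0.25) and 8 fell with IB (66.7%; median -0.26). In JEKO1, 5 of 9 rose and 2 fell (median 0.15). HSPH1 (HSP110), an exchange factor of the HSP70 family, averaged 17152 ± 445 normalized counts with PU, against 3614 ± 115 with DMSO (SD, n = 3 each), a rise of 2.25 ± 0.04 (adjusted p = 1.71e-35). HSPA4 rose by 1.28 with PU and fell by 0.48 with KPT, and HSPA8, the constitutive HSP70, fell by 0.37 with IB in MAVER and rose by 0.45 in JEKO1. HSPA1B rose by 4.95 ± 0.19 with PU, but its near-identical copy HSPA1A can share its reads, so its value is uncertain.

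Of 9 other nucleotide exchange factors, 2 rose and 4 fell with PU (22.2% and 44.4%, against 27.6% and 27.5% of all genes) and 1 rose and 3 fell with KPT (11.1% and 33.3%, against 27.3% and 28.5%). With IB, 3 fell in MAVER (33.3%, against 9.65%), and 3 rose and 1 fell in JEKO1 (33.3% and 11.1%, against 21.9% and 20.2%). Their medians were -0.09, -0.05, -0.10 and -0.03. BAG3, the stress-induced exchange factor of selective autophagy, averaged 4382 ± 283 normalized counts with PU, against 478 ± 6.45 with DMSO (SD, n = 3 each; 3.19 ± 0.06, adjusted p = 8.43e-35). It also rose with KPT (0.45 ± 0.06) and in JEKO1 (0.70 ± 0.11), and it fell by 0.25 with IB in MAVER.

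Of 17 genes for HSP90, its co-chaperones and others linked to HSF1, 11 rose and 4 fell with PU (64.7% and 23.5%, against 27.6% and 27.5% of all genes; median 1.20), and 3 rose and 8 fell with KPT (17.6% and 47.1%, against 27.3% and 28.5%; median -0.14). With IB in MAVER 11 fell and none rose (64.7%, against 9.65% of all genes; median -0.19). In JEKO1, 14 of the 17 rose and none fell (82.4%, against 21.9% of all genes; median 0.33). HSP90AA1, the inducible HSP90, averaged 130100 ± 4.96e+03 normalized counts with PU, against 21315 ± 565 with DMSO (SD, n = 3 each; 2.61 ± 0.04, adjusted p = 8.49e-39), and the small heat shock protein HSPB1 rose by 3.59 ± 0.06 (adjusted p = 8.08e-37). TRAP1, the mitochondrial HSP90, fell by 0.73 with KPT (adjusted p = 6.47e-17).

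Of 21 genes of the ER unfolded protein response, 5 rose and 14 fell with PU (23.8% and 66.7%, against 27.6% and 27.5% of all genes; median -0.35), and 6 rose and 10 fell with KPT (28.6% and 47.6%, against 27.3% and 28.5%; median -0.12). With IB, 3 rose and 13 fell in MAVER (14.3% and 61.9%, against 10.1% and 9.65%; median -0.22), and 9 rose and 5 fell in JEKO1 (42.9% and 23.8%, against 21.9% and 20.2%; median 0.08). HSPA5 averaged 3406 ± 78.7 normalized counts with PU, against 6274 ± 123 with DMSO (SD, n = 3 each; -0.88 ± 0.04, adjusted p = 4.08e-22), and the secreted factor MANF changed by -1.39 ± 0.07 (adjusted p = 1.61e-20). DERL3, of ER-associated degradation, rose by 1.16 ± 0.10 with KPT and changed by -0.96 ± 0.11 in JEKO1. Other genes of the list went the other way: CRELD2 and SDF2L1 changed by -0.79 and -0.90 with KPT, and HERPUD1 and SEC61B rose by 0.75 and 0.56 in JEKO1.

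Of 3 genes with a J domain but another symbol, none rose and 2 fell with PU (median -0.24), 1 fell with KPT (median -0.11), 1 rose with IB in MAVER (median -0.09), and 1 fell in JEKO1 (median 0.0034). The 2 that fell with PU are 66.7% of the list, against 27.5% of all genes, and the 1 with KPT is 33.3%, against 28.5%. GAK, the auxilin relative of most cells, fell by 0.58 with KPT (adjusted p = 4.18e-09) and by 0.37 with PU (adjusted p = 2.35e-05). It rose by 0.24 with IB in MAVER (adjusted p = 0.0104) and fell by 0.30 in JEKO1 (adjusted p = 9.08e-05). SEC63, which works with BiP at the ER translocon, fell by 0.24 with PU (adjusted p = 0.000927).

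Of the 45 DNAJ genes, 8 did not reach a mean of 10 in either line: DNAJB3, DNAJB7, DNAJB8, DNAJB13, DNAJC5B, DNAJC5G, DNAJC22 and DNAJC28. The nearest below the threshold was DNAJC28, with a mean of 8.92 in JEKO1 and 2.06 in MAVER, and the nearest above it were DNAJC6 in JEKO1 (22.6) and DNAJB5 in MAVER (48.7). None of the 6 antisense, pseudogene and readthrough rows passed.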

How the data were processed

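Stranded TruSeq libraries were sequenced from 1 end, and STAR, Cufflinks and DESeq2 were used, per the labels' protocols; FastQC and hg19 come from the submitters' processing notes. How reads were counted, with which annotation and strand setting, was not given in the sources used here, so antisense and overlapping genes are uncertain. The authors deposited 1 table per line of normalized counts, a signal that equals the reads of a gene over 1 factor per library. Whole reads were recovered for 100% of values (tolerance 0.01 read).

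With limma 3.58.1 (R 4.3.3; lmFit, eBayes with a trend), log2(normalized count + 1) was tested wherever a table's mean was at least 10, with Benjamini-Hochberg adjustment over all genes tested. Low genes have their changes understated on this scale. The 12 MAVER libraries were fitted together, and the difference between lines used the 12 IB and DMSO libraries. edgeR 4.0.16 and DESeq2 1.42.0 were run on the recovered reads as alternatives, beside other pseudocounts, filters, scalings, a fit without trend, a replicate block, the compared groups alone and each library left out. The fitting was checked on simulated data.

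The members, the 5 partner lists, their grouping by place and the tests were chosen with earlier results of these data known. Members called with a change of at least 1.5-fold (0.58 on the log2 scale) in any comparison with DMSO have their value in every library, and up to 3 genes per list and comparison with the smallest p are named. Replicate letters did not pair libraries: same-letter correlations of deviations ran from -0.0363 to 0.118 in JEKO1 and from -0.0918 to 0.104 in MAVER. Chi-square per degree of freedom was 1.39 to 4.92 between replicates, so none was counted as a copy. Names altered to dates stand on 28 rows of each table. Promoters are RefSeq's on GRCh38.p14; no coordinates of the hg19 tables were used. Protein sequences were not used here. A gene of a partner list is not reported here.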

Additional observations from a re-analysis of the deposited data

Results flagged for a closer look

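The IB effect differed between the lines for 13 DNAJ genes by a direct test of the difference, JEKO1 minus MAVER (limma, adjusted over 10632 genes). Values are log2 differences, with each line's own effect beside them, and the JEKO1 effects hold for the libraries as labelled.

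Among cytosolic genes the difference was 1.08 for DNAJA4 (adjusted p = 0.00497, 0.92 in JEKO1 and -0.16 in MAVER), 0.94 for DNAJB5 (adjusted p = 0.0019, 0.58 in JEKO1 and -0.36 in MAVER), 0.53 for DNAJA1 (adjusted p = 2.58e-07, 0.35 in JEKO1 and -0.18 in MAVER), 0.35 for DNAJB1 (adjusted p = 0.000143, 0.08 in JEKO1 and -0.27 in MAVER) and 0.24 for DNAJB6 (adjusted p = 0.0403, 0.17 in JEKO1 and -0.07 in MAVER). Among ER genes it was 0.63 for DNAJC1 (adjusted p = 0.00038, 0.52 in JEKO1 and -0.11 in MAVER), 0.57 for DNAJB11 (adjusted p = 4.66e-06, 0.16 in JEKO1 and -0.42 in MAVER) and 0.38 for DNAJC3 (adjusted p = 0.00717, 0.14 in JEKO1 and -0.24 in MAVER). The DNAJB6 difference was lost without each of the 12 libraries except JEKO1 IB replicate B, JEKO1 DMSO replicate C, MAVER IB replicate B and MAVER DMSO replicate A (adjusted p from 0.0514 to 0.15).

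Among the remaining class C genes the difference was 0.27 for DNAJC15 (adjusted p = 0.0135, 0.19 in JEKO1 and -0.08 in MAVER), 0.21 for DNAJC8 (adjusted p = 0.0251, 0.10 in JEKO1 and -0.11 in MAVER), 0.21 for DNAJC13 (adjusted p = 0.0345, 0.15 in JEKO1 and -0.06 in MAVER), 0.19 for DNAJC7 (adjusted p = 0.0428, 0.17 in JEKO1 and -0.02 in MAVER) and -0.61 for DNAJC6 (adjusted p = 0.0352, -0.68 in JEKO1 and -0.07 in MAVER). Each of these 5 calls was lost when some single libraries were left out. For DNAJC15 that was JEKO1 DMSO replicate B (adjusted p = 0.0597), and for DNAJC8 it was JEKO1 IB replicate C, JEKO1 DMSO replicate A, MAVER IB replicate A or MAVER DMSO replicate B (0.051 to 0.0992). For DNAJC13 it was JEKO1 IB replicate B, JEKO1 DMSO replicate A or B, MAVER IB replicate A or B, or MAVER DMSO replicate A or C (0.0566 to 0.0864). DNAJC7 was lost without each of the 12 libraries except JEKO1 IB replicate A and JEKO1 DMSO replicate C (0.0522 to 0.139). DNAJC6 was lost without each except JEKO1 IB replicates B and C, JEKO1 DMSO replicate B and MAVER DMSO replicate A (0.0534 to 0.0914). For DNAJC6, which had 15.9 to 31.9 normalized counts in JEKO1, the call was also lost with a pseudocount of 5 (adjusted p = 0.05).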

How the results depend on the processing

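No direction reversed for any DNAJ gene called in any of the 8 comparisons under any alternative run, and no scaling moved the median of all genes by over 0.1. Some counts moved by over 1.5 times, most often those of JEKO1 and of the difference between lines. In JEKO1, 9 rose and 6 fell, beside 2538 and 2341 of all genes. Without a variance trend 5 rose and 3 fell (2091 and 1863 of all genes), and with DESeq2 3 fell (1885 of all genes). Leaving out 1 library gave 5 to 13 that rose and 2 to 4 that fell (2220 to 2379 and 1930 to 2208 of all genes). For IB in MAVER, 1 rose, beside 1126 of all genes. Without a trend 0 rose (918 of all genes), and leaving out 1 library gave 0 to 1 (889 to 1064 of all genes). For KPT, 8 rose, and the count was lower with KPT replicate B as the only KPT library, where fewer of all genes passed as well. In the difference between lines 1 was lower in JEKO1, beside 2081 of all genes. That count was 0 with a pseudocount of 5, a mean of at least 50 or DESeq2 (2095, 1897 and 1831 of all genes). Leaving out 1 library gave 0 to 2 (1890 to 2038 of all genes). The cause was not tested. For PU, leaving out 1 library gave 12 to 15 that rose and 10 that fell. Of all genes, 2776 to 2848 then rose and 2790 to 2873 fell, against 3066 and 3055 with every library. With the replicate letter as a replicate block, though the libraries share only a letter, 12 rose and 6 fell in JEKO1 (2819 and 2688 of all genes). With that block in MAVER, 1 rose and 4 fell with IB (1100 and 1055 of all genes). There 8 rose and 13 fell with KPT (3020 and 3150 of all genes), and 14 and 10 with PU (3046 and 3047). The shallowest library, KPT replicate A with 5374226 reads, limits what can be said of genes near the threshold.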

Other observations

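Among the rows under the threshold, DNAJB3, DNAJB7 and DNAJB8 and the antisense rows of DNAJB5 and DNAJB8 were at 0 in all 18 libraries, as was the readthrough of DNAJC25 into GNG10. DNAJC5B, a relative of the cysteine string protein, had 5.17, 5.59 and 4.77 normalized counts in JEKO1 DMSO libraries, and 0.794, 0 and 5.23 in those labelled IB. The antisense row of DNAJC9 ran from 1.12 to 5.73 in JEKO1 and from 0 to 4.86 in MAVER.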
